A study of Arabidopsis thaliana with 6 samples.

Results

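Plastid ribosomes make the proteins encoded by the plastid genome, and most of their own protein subunits are encoded in the nucleus, made in the cytosol and imported. The levels of 38 such nuclear genes were compared between Arabidopsis thaliana leaf mesophyll protoplasts given the soybean transcription factor GmWRI1 and protoplasts given the fluorescent protein mCHERRY. The 38 loci, of 21671 genes with a read in any library, were listed by what they encode, and the list was proposed with earlier results of these data known. They were 24 proteins of the large subunit (PRPL), 9 of the small subunit (PRPS) and 5 plastid-specific ribosomal proteins (PSRP). WRINKLED1 proteins belong to the AP2 family and are known as activators of fatty acid synthesis genes in seeds, and most of the enzymes that they act on work in the plastid.

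Protoplasts of the Col-0 ecotype received 35S:GmWRI1-A, a GmWRI1 gene under the constitutive 35S promoter, or 35S:mCHERRY under the same promoter, and were harvested 16 h later. There were 3 biological replicates of each, so that the control carried the same transfection and a foreign protein. The share of cells that took up the plasmid was not given in the sources used here, and cells without it are part of every RNA pool. RNA-seq reads assigned to genes numbered 4155836 to 11748328 per library, and 14762 genes had enough reads for the test.

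As a check that the factor acted, the biotin carrier BCCP2 and the biotin carboxylase CAC2, both of the plastid acetyl-CoA carboxylase, were higher in GmWRI1 by 6.06 and 4.88 on the log2 scale. BCCP2 had only 5 reads in each mCHERRY library, so the size of its change is uncertain. The summed level of 6 mesophyll markers ranged from 186.0 to 198.4 CPM (reads per total of the library, after scaling by the trimmed mean of M-values, TMM) in mCHERRY and from 543.2 to 624.1 CPM in GmWRI1, with 2 of the 4 tested past both limits of the test described below (RBCS1A and RCA). Without RBCS1A, a small subunit gene of Rubisco, they summed to 142.0 to 149.7 CPM and 235.8 to 263.5 CPM, and the carbonic anhydrase gene CA1 had a log2 fold change of -0.15 (edgeR adjusted p = 0.321). The 5 epidermis markers summed to 1.10 to 1.79 CPM in mCHERRY and 3.64 to 7.47 CPM in GmWRI1, most of it from CER6. CER6, the only 1 tested, passed both limits upwards (log2 fold change 1.99, edgeR adjusted p = 0.000257). FDH was at 0 in all mCHERRY libraries and had 16, 4 and 1 reads in the GmWRI1 libraries. The 4 guard cell markers summed to 1.24 to 2.27 CPM and 1.21 to 3.60 CPM, and KAT1 was at 0 in 5 of 6 libraries. The 7 vascular and bundle sheath markers summed to 44.2 to 45.0 CPM and 251.2 to 346.9 CPM. Without the proton pump gene AHA3 they summed to 10.9 to 13.9 CPM and 17.0 to 17.9 CPM. Of the 2 tested, AHA3 passed both limits upwards (log2 fold change 3.05, edgeR adjusted p = 3.11e-14). The other, SCR, passed the adjusted p alone (0.56, edgeR adjusted p = 0.0124). SUC2 was at 0 in all mCHERRY libraries and had 3, 0 and 0 reads in the GmWRI1 libraries. The part of the epidermis, vascular and mesophyll markers in the results below was not tested.

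Most of the tested nuclear genes of the plastid ribosome were higher with GmWRI1, and none of them was called lower. Of the 35 members with enough reads for the test, 24 were higher at an edgeR adjusted p below 0.05, of which 10 also passed a 2-fold limit (a log2 fold change above 1), and 11 passed neither limit. The median log2 fold change of the 35 was 0.86, with a range from 0.02 to 1.69, whereas the median over all tested genes was -0.01. Both limits were passed upwards by 9.44% of all tested genes and downwards by 1.45%. Without the fold limit 20.4% were higher and 14.6% lower. Among the 7814 tested genes whose mean level lay within that of the members, 2.57 to 29.5 CPM, 11.1% passed both limits upwards and 1.6% downwards, and without the fold limit 21.2% were higher and 8.95% lower. A larger share of cells responding and a larger amount of RNA per cell cannot be told apart in these bulk samples.

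The fitted change was above 0 in all 35 tested members, against 48.7% of all tested genes and 53.5% of those within the members' range of level. In 30 of the 35 the lowest GmWRI1 library lay above the highest mCHERRY library, a separation seen in 24.9% of all tested genes and 26.5% of those within that range, and in no member was it reversed, against 21.1%. The change was of like size in each GmWRI1 library. Against the mean of the mCHERRY libraries, the median member stood 0.84, 0.75 and 0.79 higher on the log2 scale in GmWRI1 libraries 1, 2 and 3, with 34, 35 and 33 of the 35 members above that mean.

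**Figure D1:**
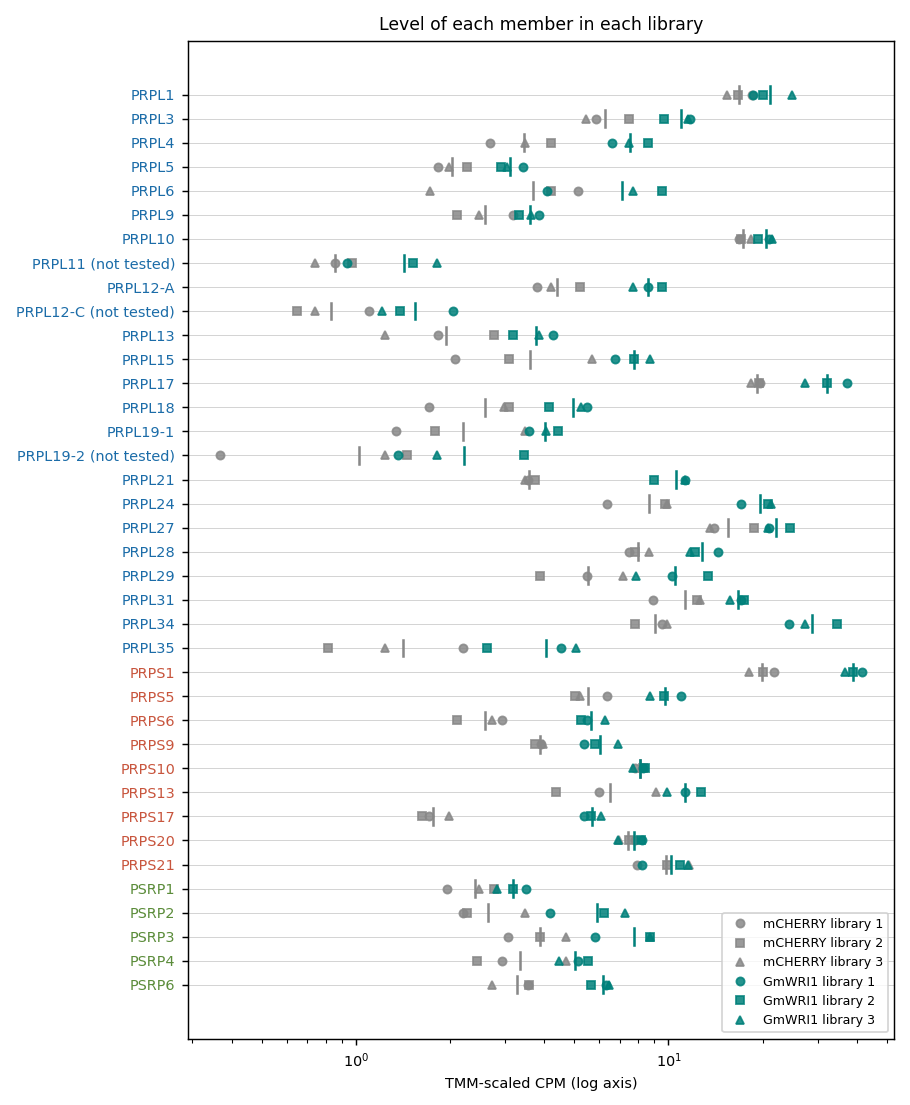
Level of each of the 38 genes in TMM-scaled CPM (log axis), with grey symbols for the 3 mCHERRY libraries, teal symbols for the 3 GmWRI1 libraries and vertical ticks for the group means. The groups are apart, with GmWRI1 higher, in 31 genes and overlap in 7, among them PRPS10, PRPS20 and PRPS21.

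Summed over members, the shift was seen in all 3 classes. The 38 genes together held 224.2, 235.0 and 239.7 CPM in the mCHERRY libraries and 388.9, 410.3 and 392.7 CPM in the GmWRI1 libraries, a ratio of 1.71 between the means. The large subunit genes went in sum from 152 ± 6.84 to 266 ± 8.62 CPM (SD, n = 3, ratio 1.75). Those of the small subunit went from 65.6 ± 2.64 to 104 ± 2.71 CPM (ratio 1.58) and the plastid-specific genes from 15.6 ± 2.25 to 28.0 ± 2.65 CPM (ratio 1.80). No test was made of these sums, and the groups did not overlap in any of them.

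**Figure D2:**
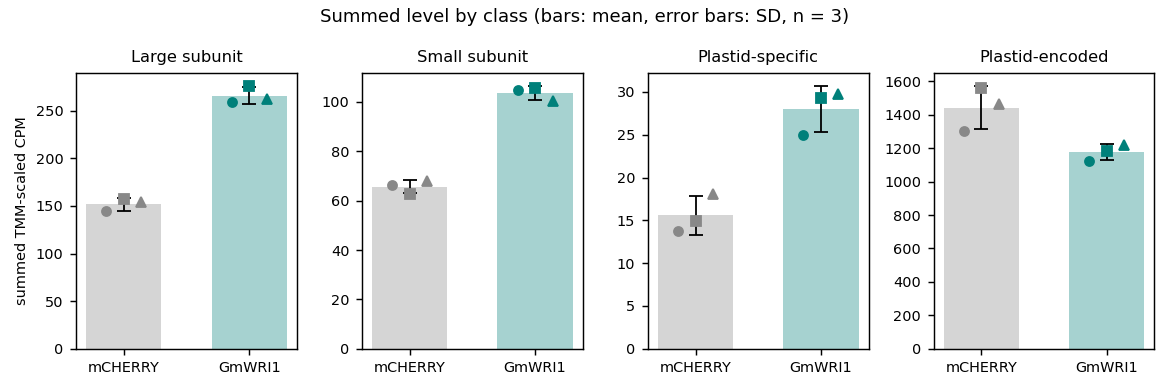
Summed TMM-scaled CPM of the 24 large subunit, 9 small subunit and 5 plastid-specific genes and of the 17 counted ribosomal protein genes of the plastid genome (bars, mean; error bars, SD, n = 3; symbols, libraries). The 3 nuclear classes are higher in every GmWRI1 library and the plastid-encoded sum is lower in every one.

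Of the 21 tested large subunit genes, 6 passed both limits, 10 more were higher by less than 2-fold, and 5 passed neither, with a median log2 fold change of 0.92. The largest fitted change in this class was that of PRPL34 (AT1G29070, chr1:10149791-10151407, coordinates here and below from the RefSeq annotation of TAIR10.1), which encodes a small protein of this subunit. PRPL34 measured 9.54, 7.79 and 9.89 CPM in the mCHERRY libraries and 24.3, 34.7 and 27.3 CPM in the GmWRI1 libraries, a fitted log2 change of 1.66 ± 0.17 (SE, with adjusted p = 1.26e-07 in edgeR). Every GmWRI1 library held more than 2 times the highest mCHERRY value. PRPL21 (AT1G35680, chr1:13208683-13210428) measured 3.55, 3.73 and 3.46 CPM in the mCHERRY libraries and 11.3, 8.99 and 11.3 CPM in the GmWRI1 libraries, a fitted log2 change of 1.55 ± 0.23 (SE, with adjusted p = 1.76e-05 in edgeR). Its mCHERRY libraries were close to each other and far below those with GmWRI1.

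PRPL35 (AT2G24090, chr2:10241875-10243674) was a low gene, with 2.20, 0.811 and 1.24 CPM in the mCHERRY libraries and 4.53, 2.63 and 5.06 CPM in the GmWRI1 libraries, a fitted log2 change of 1.43 ± 0.40 (SE, with adjusted p = 0.00755 in edgeR). Its groups were apart by a narrow margin, and without mCHERRY replicate 2, the lowest library, the adjusted p was 0.0591. PRPL24 (AT5G54600, chr5:22182843-22184610), whose bacterial counterpart starts the assembly of the large subunit, measured 6.36, 9.74 and 9.89 CPM in the mCHERRY libraries and 17.1, 20.7 and 21.2 CPM in the GmWRI1 libraries, a fitted log2 change of 1.21 ± 0.19 (SE, with adjusted p = 3.52e-05 in edgeR). PRPL15 (AT3G25920, chr3:9491055-9492655), a protein needed late in bacterial large subunit assembly, measured 2.08, 3.08 and 5.69 CPM in the mCHERRY libraries and 6.75, 7.74 and 8.70 CPM in the GmWRI1 libraries, a fitted log2 change of 1.19 ± 0.30 (SE, with adjusted p = 0.00397 in edgeR). The spread of PRPL15 in mCHERRY was wide, with library 3 well above the other two, yet still below every GmWRI1 library. PRPL4 (AT1G07320, chr1:2248967-2250529), which in bacteria lines the tunnel through which the new protein leaves, measured 2.69, 4.22 and 3.46 CPM in the mCHERRY libraries and 6.58, 8.57 and 7.48 CPM in the GmWRI1 libraries, a fitted log2 change of 1.13 ± 0.27 (SE, with adjusted p = 0.00206 in edgeR). Without mCHERRY replicate 1 the fitted changes of PRPL24, PRPL15 and PRPL4 were 0.99, 0.85 and 0.94, under the 2-fold limit though still past the adjusted p.

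The 10 large subunit genes that rose by less than 2-fold had log2 fold changes from 0.51 (PRPL27) to 0.99 (PRPL18), and their groups did not overlap in any of the 10. Among them were PRPL3 (0.80, adjusted p = 0.00489) and PRPL13 (0.92, adjusted p = 0.045), early binders of rRNA in bacteria, and PRPL17 (0.76, adjusted p = 0.000191), PRPL28 (0.71, adjusted p = 0.00578), PRPL29 (0.98, adjusted p = 0.00385) and PRPL31 (0.60, adjusted p = 0.0108). PRPL27, which in bacteria reaches the centre where the peptide bond is made, had an adjusted p of 0.0164, and PRPL18, a protein of the central protuberance, one of 0.0186. The adjusted p of PRPL13 was 0.145 without mCHERRY replicate 1, 0.138 without mCHERRY replicate 3, 0.16 without GmWRI1 replicate 1 and 0.076 without GmWRI1 replicate 3. That of PRPL18 was 0.136 without mCHERRY replicate 1 and 0.0784 without GmWRI1 replicate 1. PRPL27 had 0.0904, 0.0556 and 0.0766 without mCHERRY replicate 1, mCHERRY replicate 3 and GmWRI1 replicate 2, and PRPL31 had 0.0955 without mCHERRY replicate 1. With DESeq2's Wald test PRPL13, PRPL18 and PRPL19-1 had adjusted p of 0.113, 0.0501 and 0.0987, and 21 members in place of 24 were higher. The other values are from edgeR's quasi-likelihood test with Benjamini-Hochberg adjustment over all tested genes.

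PRPL12 forms the flexible stalk that recruits translation factors, and the copies PRPL12-A and PRPL12-C lie near each other on chromosome 3. PRPL12-A (AT3G27830, chr3:10318455-10319920) measured 3.79, 5.19 and 4.21 CPM in the mCHERRY libraries and 8.63, 9.54 and 7.68 CPM in the GmWRI1 libraries, a fitted log2 change of 0.98 ± 0.24 (SE, with adjusted p = 0.00247 in edgeR). PRPL12-C (AT3G27850, chr3:10324788-10325746) was too low for the test, with 9, 4 and 3 reads in the mCHERRY libraries and 24, 10 and 6 reads in the GmWRI1 libraries. Of the 50-base words in their RefSeq transcripts, 24.2% of those in PRPL12-A and 24.7% of those in PRPL12-C occur in the other. Reads with several positions were discarded by the authors, so reads lying wholly in shared stretches would have been counted for neither copy. Summed, the copies held 5.23 ± 0.533 CPM in mCHERRY and 10.2 ± 1.10 CPM in GmWRI1 (SD, n = 3, ratio 1.95).

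PRPL19, which in bacteria sits where the subunits meet, also has a pair of genes. PRPL19-1 (AT5G47190, chr5:19164184-19166135) measured 1.34, 1.78 and 3.46 CPM in the mCHERRY libraries and 3.59, 4.42 and 4.04 CPM in the GmWRI1 libraries, a fitted log2 change of 0.97 ± 0.36 (SE, with adjusted p = 0.0414 in edgeR). Its groups lay close together, and the adjusted p was 0.0534 to 0.231 on leaving out any single library other than mCHERRY library 3. PRPL19-2 (AT4G17560, chr4:9780224-9782183) was not tested, with 3, 9 and 5 reads in the mCHERRY libraries and 16, 25 and 9 reads in the GmWRI1 libraries. Its groups overlapped. PRPL11, a protein of the site where translation GTPases are activated, was also below the limit for the test, with 7, 6 and 3 reads in the mCHERRY libraries and 11, 11 and 9 reads in the GmWRI1 libraries. With no filter on low counts the fitted log2 fold changes of PRPL11, PRPL12-C and PRPL19-2 were 0.64, 0.91 and 1.18, with edgeR adjusted p of 0.483, 0.246 and 0.0674.

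The 5 large subunit genes that passed neither limit were PRPL1, PRPL5, PRPL6, PRPL9 and PRPL10. PRPL10 anchors the stalk of PRPL12 to the subunit. It measured 16.8, 17.0 and 18.3 CPM in the mCHERRY libraries and 20.9, 19.4 and 21.4 CPM in the GmWRI1 libraries, a fitted log2 change of 0.25 ± 0.14 (SE, with adjusted p = 0.19 in edgeR), and the 95% interval of the log2 fold change was -0.05 to 0.55. PRPL1, which forms a mobile stalk at the exit side, measured 18.5, 16.7 and 15.3 CPM in the mCHERRY libraries and 18.6, 20.1 and 24.9 CPM in the GmWRI1 libraries, a fitted log2 change of 0.30 ± 0.16 (SE, with adjusted p = 0.151 in edgeR), with an interval of -0.03 to 0.62. In both genes the GmWRI1 libraries all lay above the mCHERRY libraries, and their intervals left out a 2-fold rise.

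PRPL9 measured 3.18, 2.11 and 2.47 CPM in the mCHERRY libraries and 3.84, 3.32 and 3.64 CPM in the GmWRI1 libraries, a fitted log2 change of 0.45 ± 0.32 (SE, with adjusted p = 0.287 in edgeR), with an interval of -0.21 to 1.12 that included both 0 and a 2-fold rise. PRPL5, of the central protuberance, had a fitted log2 change of 0.64 ± 0.34 (SE, with adjusted p = 0.156 in edgeR) and an interval of -0.07 to 1.34. PRPL6 varied widely between libraries, with 5.14, 4.22 and 1.73 CPM in the mCHERRY libraries and 4.10, 9.54 and 7.68 CPM in the GmWRI1 libraries, a fitted log2 change of 0.80 ± 0.34 (SE, with adjusted p = 0.0733 in edgeR). GmWRI1 library 1 lay below mCHERRY libraries 1 and 2, and the adjusted p was 0.00753 without GmWRI1 replicate 1 and 0.0402 without mCHERRY replicate 1. With every library kept, the adjusted p of PRPL6 was 0.0161 with no filter on low counts. It was 0.0331 and 0.0384 with edgeR's exact and likelihood ratio tests.

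**Figure D3:**
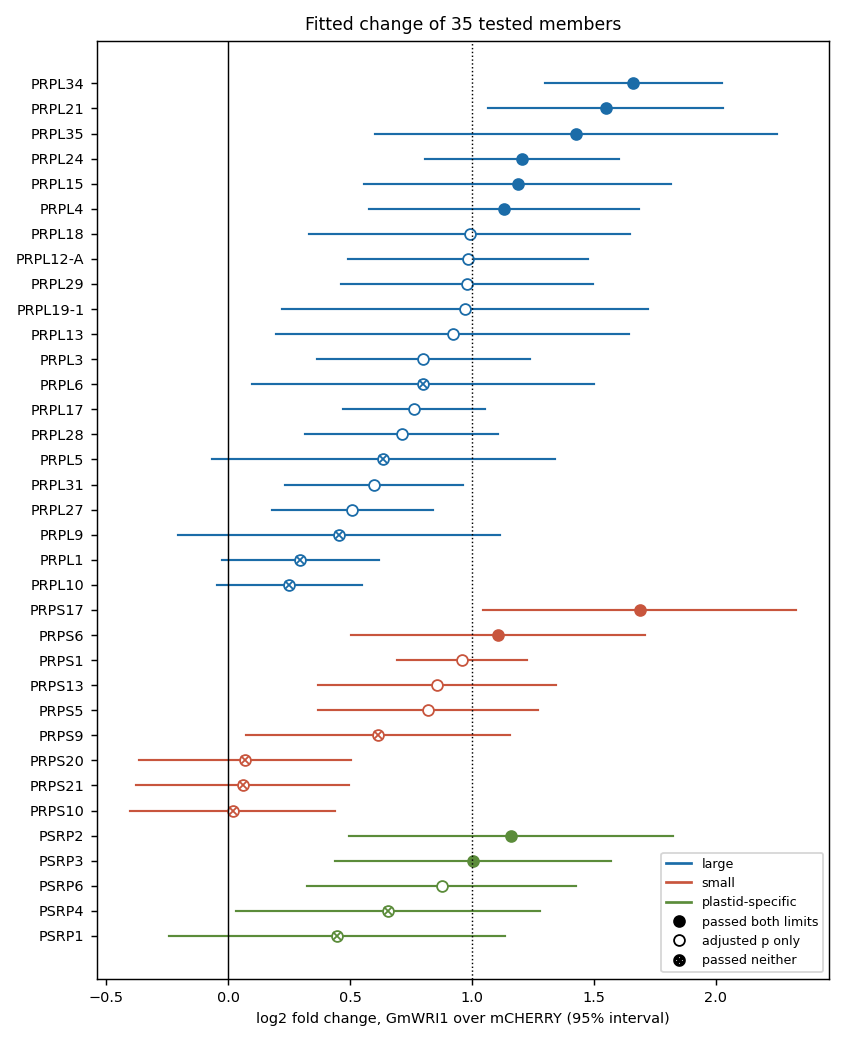
Fitted log2 fold change of the 35 tested genes (points) with 95% intervals (lines), by class, with filled circles for genes past both limits, open circles for genes past the adjusted p alone and crossed circles for genes past neither. All points are right of 0, and PRPS10, PRPS20 and PRPS21 stand apart at the low end.

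The small subunit genes were split. PRPS17, PRPS6, PRPS1, PRPS13 and PRPS5 were higher in GmWRI1, while PRPS10, PRPS20 and PRPS21 had fitted changes near 0 and PRPS9 lay between. The median of the 9 was 0.82. PRPS17 (AT1G79850, chr1:30041243-30041952), whose bacterial counterpart binds rRNA early in assembly, measured 1.71, 1.62 and 1.98 CPM in the mCHERRY libraries and 5.38, 5.67 and 6.07 CPM in the GmWRI1 libraries, a fitted log2 change of 1.69 ± 0.31 (SE, with adjusted p = 0.000183 in edgeR). It was the largest fitted change of the 35, and its GmWRI1 libraries differed little among themselves. PRPS6 (AT1G64510, chr1:23954800-23956304), a protein of the platform of the subunit, measured 2.94, 2.11 and 2.72 CPM in the mCHERRY libraries and 5.47, 5.25 and 6.27 CPM in the GmWRI1 libraries, a fitted log2 change of 1.11 ± 0.29 (SE, with adjusted p = 0.00488 in edgeR). Without mCHERRY replicate 2 the fitted change of PRPS6 was 0.97.

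PRPS1, which in bacteria binds mRNA at the start of translation, had the highest level per length among the small subunit genes. It measured 21.8, 20.1 and 18.1 CPM in the mCHERRY libraries and 41.7, 38.9 and 36.6 CPM in the GmWRI1 libraries, a fitted log2 change of 0.96 ± 0.13 (SE, with adjusted p = 4.12e-06 in edgeR), with an interval of 0.69 to 1.22. The groups were far apart although the fitted change was just under 2-fold. PRPS13 (0.86, adjusted p = 0.00669), at the head of the subunit, and PRPS5 (0.82, adjusted p = 0.00526), which in bacteria takes part in the accuracy of decoding, were also higher. Without mCHERRY replicate 2 the adjusted p of PRPS13 was 0.0635. PRPS9, whose tail in bacteria reaches the tRNA, had a fitted log2 change of 0.62 ± 0.26 (SE, with adjusted p = 0.073 in edgeR), and so missed the threshold, although its groups did not overlap.

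PRPS10, a head protein that in bacteria also serves in transcription, measured 7.83, 8.28 and 8.16 CPM in the mCHERRY libraries and 8.29, 8.43 and 7.68 CPM in the GmWRI1 libraries, a fitted log2 change of 0.02 ± 0.20 (SE, with adjusted p = 0.958 in edgeR). PRPS20, an early rRNA binder, measured 7.83, 7.46 and 6.93 CPM in the mCHERRY libraries and 8.20, 8.16 and 6.88 CPM in the GmWRI1 libraries, a fitted log2 change of 0.07 ± 0.21 (SE, with adjusted p = 0.835 in edgeR). PRPS21 measured 7.95, 9.90 and 11.6 CPM in the mCHERRY libraries and 8.20, 10.9 and 11.5 CPM in the GmWRI1 libraries, a fitted log2 change of 0.06 ± 0.21 (SE, with adjusted p = 0.862 in edgeR). In each of these genes the groups overlapped. The 95% intervals were -0.40 to 0.44, -0.37 to 0.50 and -0.38 to 0.50 for PRPS10, PRPS20 and PRPS21 and all lie below the median change of the members. They were the 3 smallest fitted changes of the 35, and each of these genes had between 28 and 97 reads in every library.

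The plastid-specific proteins have no counterpart in the Escherichia coli ribosome or only a distant one. Of the 5, PSRP2 and PSRP3 passed both limits and PSRP6 was higher by less than 2-fold. PSRP2 (AT3G52150, chr3:19342014-19343466), with RNA-binding domains, measured 2.20, 2.27 and 3.46 CPM in the mCHERRY libraries and 4.19, 6.22 and 7.28 CPM in the GmWRI1 libraries, a fitted log2 change of 1.16 ± 0.32 (SE, with adjusted p = 0.00699 in edgeR). PSRP3 (AT1G68590, chr1:25757404-25758411), which is conserved in cyanobacteria, measured 3.06, 3.90 and 4.70 CPM in the mCHERRY libraries and 5.81, 8.71 and 8.70 CPM in the GmWRI1 libraries, a fitted log2 change of 1.00 ± 0.27 (SE, with adjusted p = 0.00621 in edgeR). The fitted change of PSRP3 lay on the 2-fold limit, and in 7 of 17 alternatives it was below that limit, the lowest being 0.83 without mCHERRY replicate 1, followed by 0.89 and 0.93 without GmWRI1 replicates 2 and 3. PSRP6 measured 3.55, 3.57 and 2.72 CPM in the mCHERRY libraries and 6.32, 5.67 and 6.47 CPM in the GmWRI1 libraries, a fitted log2 change of 0.88 ± 0.27 (SE, with adjusted p = 0.0134 in edgeR).

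PSRP4 measured 2.94, 2.43 and 4.70 CPM in the mCHERRY libraries and 5.12, 5.53 and 4.45 CPM in the GmWRI1 libraries, a fitted log2 change of 0.65 ± 0.30 (SE, with adjusted p = 0.0981 in edgeR), and its groups overlapped through mCHERRY library 3. Without mCHERRY replicate 3 the adjusted p was 0.0385. PSRP1, related to the bacterial proteins that silence ribosomes in resting cells, measured 1.96, 2.76 and 2.47 CPM in the mCHERRY libraries and 3.50, 3.18 and 2.83 CPM in the GmWRI1 libraries, a fitted log2 change of 0.45 ± 0.33 (SE, with adjusted p = 0.321 in edgeR). Its groups were apart by a small margin, and its interval was -0.24 to 1.13.

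Per kilobase of transcript (RPKM, the CPM over the transcript's length), the members differed 26.8-fold in level in mCHERRY. In mCHERRY the level ran from 0.777 RPKM in PRPL11 to 20.8 RPKM in PRPL10, with a median of 4.195, and in GmWRI1 from 1.29 RPKM in PRPL11 to 35.1 RPKM in PRPL34, with a median of 7.86. The median of all tested nuclear genes in mCHERRY was 10.2 RPKM, so that most members were below the middle of the tested genes. PRPL10 stood at 20.8 ± 0.991 RPKM (SD, n = 3) in mCHERRY and 24.7 ± 1.30 RPKM in GmWRI1, and PRPL34 at 11.1 ± 1.38 RPKM (SD, n = 3) in mCHERRY and 35.1 ± 6.56 RPKM in GmWRI1. PRPL34 thus went from below PRPL10 to above it. The order of the members was largely kept, with a Pearson r of 0.92 and a Spearman rho of 0.92 between the log2 levels of the groups over 35 members. These genes share the same libraries and are not independent replicates.

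**Figure D4:**
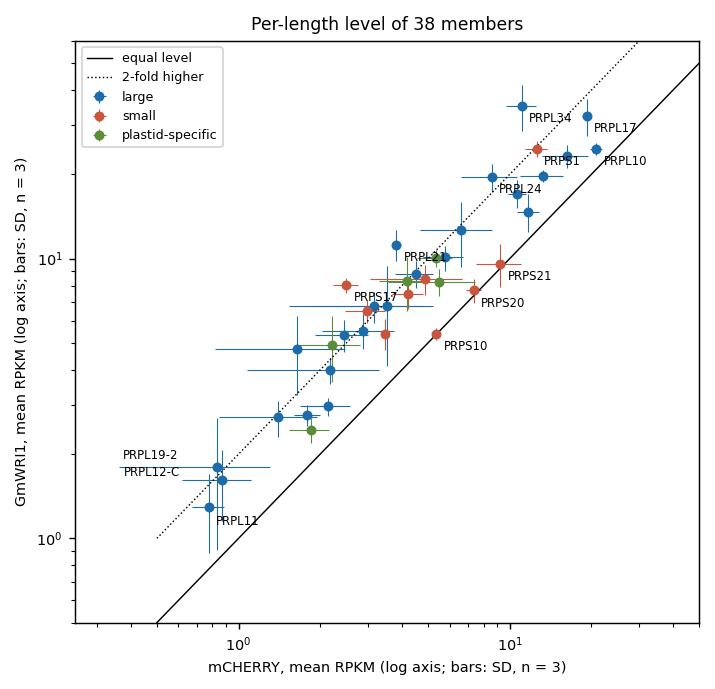
Mean RPKM of the 38 genes in GmWRI1 against mCHERRY (log axes; bars, SD, n = 3), with lines for equal level and for a 2-fold rise. No gene lies below the line of equal level, PRPS10 is nearest to it, and PRPL34 and PRPS17 are among the genes above the 2-fold line.

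Members of lower level in mCHERRY tended to have the larger fitted change, with a Pearson r of -0.42 and a Spearman rho of -0.39 between the log2 fold change and the log2 CPM in mCHERRY over 35 genes. Both measures use the same mCHERRY libraries. PRPL34 went against this tendency, being among the higher genes with a large change. So did PRPL9 and PSRP1, low genes at 2.59 and 2.40 CPM in mCHERRY, each with a fitted log2 fold change of 0.45.

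Sequence near the start of each gene is shown for the motif that WRINKLED1 proteins are known to bind, the AW Box (CNTNGNNNNNNNCG, sought on both strands), for 3 members past both limits, for 2 past neither and for the PRPL12 copies. From the RefSeq TAIR10.1 genome, the motif with 8 flanking bases on each side is given 5′ to 3′ on the strand that matches, with the motif in capitals.
PRPL34, chr1:10149912-10149925, plus strand, in a coding exon: cgttgtagCTTCGGCTTCGTCGcgtttatg
PRPS17, chr1:30041541-30041554, minus strand, in a coding exon: cttcctgtCATCGCAAGGGCCGccaggaaa
PRPL24, chr5:22182994-22183007, minus strand, in the 5′ UTR: tctttttcCTTCGTCCTATCCGttccacag
PRPS10, chr3:4221349-4221362, minus strand, in a coding exon: acgaaggtCTTCGCTGTTCCCGatacccta
PRPL10, chr5:4341662-4341675, minus strand, in a coding exon: agggatttCATCGGTCTGGACGaaaagcca
PRPL12-A, chr3:10318830-10318843, minus strand, in a coding exon: gaatttgtCTTGGAGATAGTCGacgaggat
PRPL12-C, chr3:10325147-10325160, minus strand, in a coding exon: gaatttgtCTTGGAGATAGTCGacgaggat

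The first 3 of these genes passed both limits, and PRPS10 and PRPL10 passed neither. Sites therefore occur both among the members of largest change and among those of least. The PRPL12-A and PRPL12-C sites were identical over all 30 bases shown. Only 1 site per gene is shown. Within 500 bases after the start PRPL12-A held 2 AW Boxes and PRPL12-C held 1. PRPL34, PRPS17 and PRPL24 also held the motif in the 500 bases before the start. Within 500 bases after the annotated start, the AW Box was present in 16 of the 38 members (42.1%) and in 42.6% of all tested nuclear genes. It was present in 3 of the 10 members past both limits and in 5 of the 11 that passed neither, and the median log2 fold change was 0.81 in the 14 tested members with a site and 0.88 in the 21 without. Of the 22 sites in the members, 20 were in coding exons. In the 500 bases before the start, 28.9% of members and 19.4% of all tested nuclear genes had the motif. There it was present in 5 of the 10 members past both limits, in 2 of the 14 higher by less than 2-fold and in 2 of the 11 that passed neither. A match is a description of the letters, and binding was not measured here.

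The motif site II (TGGGCC or TGGGCT, on both strands), which is known from the promoters of Arabidopsis genes for ribosomal and other housekeeping proteins, was also sought from 250 bases before to 50 bases after the start. It was present in 19 of 38 members (50.0%) and in 28.3% of all tested nuclear genes. By class it was present in 9 of 24 large subunit genes, in 8 of 9 small subunit genes, all but PRPS1, and in 2 of 5 plastid-specific genes. Examples are shown from PRPS6 and PRPS17, which passed both limits, and from PRPS10, which passed neither, with the motif in capitals and 8 flanking bases on each side.
PRPS6, chr1:23956320-23956325, plus strand: taggttatTGGGCCtgttaaag
PRPS17, chr1:30042031-30042036, plus strand: caataaacTGGGCCtaatctta
PRPS10, chr3:4221782-4221787, minus strand: ataaaataTGGGCCtaatgggt
PRPS10, PRPS20 and PRPS21 each hold site II, as PRPS6 and PRPS17 do. The median log2 fold change was 0.82 in the 17 tested members with site II and 0.90 in the 18 without. The telo box (AAACCCTA) was present in 13.2% of members and 5.69% of tested nuclear genes in the same window, the G-box (CACGTG) in 7.89% and 9.41%, and the CNC Box (CNCCNCC) in 23.7% and 13.6%. The CNC Box is a motif that the study found in regions bound by GmWRI1. Within 500 bases after the start it was present in 22 of 38 members (57.9%) and in 51.7% of tested nuclear genes. There the CNC Box was present in 3 of the 10 members past both limits, in 8 of the 14 higher by less than 2-fold and in 9 of the 11 that passed neither. In the 500 bases before the start the order was reversed, with 5 of the 10, 4 of the 14 and 1 of the 11. In that window 12 of 38 members (31.6%) and 21.4% of tested nuclear genes had the CNC Box. From 500 bases before to 500 bases after the start of the members, an AW Box and a CNC Box overlapped in 5 pairs of sites in 4 members. An AW Box overlapped a telo box once, an AW Box a site II once and a site II a CNC Box once.

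Other genes of plastid translation, listed by their function, changed by various amounts. Of 26 listed ribosomal protein loci of the plastid genome, 17 were counted, and rps7, rpl2, rpl22 and rpl23 were absent from the counts. Of the 17, all of them tested, none was higher and 4 were lower at the adjusted p without a fold limit. Their median log2 fold change was -0.20. The lowest were rpl20, at 79.1, 97.0 and 119.5 CPM in mCHERRY and 32.8, 60.4 and 72.4 CPM in GmWRI1 (-0.86, SE 0.19, edgeR adjusted p = 0.00118), and rpl14, whose log2 fold change was -0.86 (SE 0.11, adjusted p = 2.12e-06). The highest was rps16, at 0.56 (adjusted p = 0.105). The other genes that fell were rps2, by 0.38, and rps4, by 0.51 on the log2 scale. The adjusted p of rps2 was 0.102 without mCHERRY replicate 2 and 0.0588 without GmWRI1 replicate 1, and that of rpl20 was 0.0674 with DESeq2's Wald test. The log2 fold change of rpl20 was -1.004 without mCHERRY replicate 1 and -1.08 without GmWRI1 replicate 3, past both limits. The summed level of the 17 genes was 1441 ± 128 CPM in mCHERRY and 1176 ± 48.6 CPM in GmWRI1 (SD, n = 3). The tested nuclear and plastid genes of the same ribosome thus differed in the direction of their medians, although no test of that difference was made.

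Of 14 tested plastid translation factors, 8 were higher at the adjusted p, 4 of them past both limits, and the median was 0.59. The initiation factors SVR9 (2.54, SE 0.23) and FUG1 (1.87, SE 0.10), the elongation factor EF-P (1.84, SE 0.27) and the release factor HCF109 (1.23, SE 0.25) passed both limits. Without GmWRI1 replicate 1, HCF109 stood at 0.97, under the 2-fold limit. Of 17 tested assembly factors 7 were higher, the GTPase DER (1.31, SE 0.18) and the RNA helicase RH3 (1.23, SE 0.10) past both limits, with a median of 0.31. Among the 7, RBF1, YbeY and RNR1 had adjusted p of 0.088, 0.0782 and 0.0916 with DESeq2's Wald test. Without mCHERRY replicate 3 they had edgeR adjusted p of 0.0549, 0.0831 and 0.125, and each missed the threshold on other omissions as well. Of the plastid ribosomal proteins outside the 38, PSRP5 stood at 0.94 (edgeR adjusted p = 0.000939, and past both limits at 1.06 and 1.02 without mCHERRY replicate 3 and GmWRI1 replicate 3) and SSR16 at 0.46 (adjusted p = 0.087).

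Ribosomal proteins of other compartments, taken by the words of their RefSeq product names, had lower medians than the members. Of 12 tested cytosolic genes 6 were higher, AT1G57540 past both limits (1.48, SE 0.42) though not without mCHERRY replicate 2, with a median of 0.54. Of 4 tested mitochondrial genes 1 was higher, AT3G01740 (0.55, adjusted p = 0.0341, and 0.0814 with DESeq2's Wald test and 0.0838 to 0.129 on leaving out mCHERRY replicate 1 or 2 or GmWRI1 replicate 1 or 3), and the lowest was AT2G34520 (0.06, adjusted p = 0.796), with a median of 0.19. The name rule finds only part of each family, and the difference from the members was not tested. Most of the tested cytosolic genes are named as 60S acidic ribosomal proteins, so their median does not stand for the cytosolic ribosome.

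**Figure D5:**
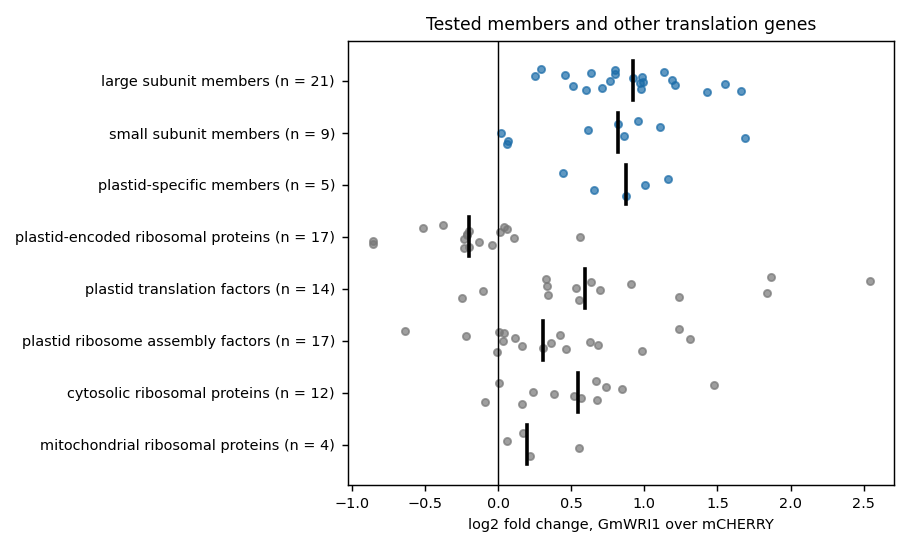
Log2 fold changes of tested genes (points) and their medians (vertical ticks) for the 3 classes of members in blue and 5 other lists of translation genes in grey. The class medians are 0.92, 0.82 and 0.88, and that of the plastid-encoded ribosomal proteins is -0.20.

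Some members share sequence with other genes in the RefSeq transcripts. Where the authors' transcripts share it too, reads lying wholly within it would not have been counted, which was not examined. Strand was not given in the sources used here, and 14 of the 38 loci overlap a gene on the other strand, and a read that matched both transcripts of such a pair would have been discarded. Of the 38 transcripts, 12 share 50-base words with another counted transcript and 5 share over 20% of them. PRPL28 shares 65.7% of its words with AT2G33460, which had 0 to 2 reads per library, PRPS13 28.4% with AT5G14310, and PRPS17 22.5% with AT1G79840, which also had 0 to 2 reads. AT5G14310 had a log2 fold change of -0.22 (edgeR adjusted p = 0.285). The levels of PRPL28, PRPS13, PRPS17 and the PRPL12 copies are uncertain to that extent.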

How the data were processed

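RNA-seq libraries of total RNA were aligned by the authors with Bowtie 0.12.7 to TAIR10 primary transcripts after removal of rRNA reads, keeping reads with a single best place. The deposited files hold raw counts per transcript for each library, and a deposited table of TMM-normalised signal, made with edgeR 3.10.5, served only as an alternative set of genes. The line that names no transcript held 39.4% to 63.3% of the reads and was left out.

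Counts were tested with edgeR 4.0.16 (R 4.3.3) by the quasi-likelihood test, with filterByExpr at a minimum count of 10, TMM scaling and group as the only term, and p-values were adjusted by Benjamini-Hochberg over 14762 genes. Limits were an adjusted p of 0.05 and a log2 fold change of 1. A count of 3 was worth 0.256 to 0.742 CPM in the 6 libraries. The common coefficient of variation between replicates was 0.0991. CPM were TMM-scaled, RPKM were CPM per kilobase of RefSeq transcript, and the SE was the log2 fold change over the square root of F. Intervals are 95% intervals and cover only the spread between these samples. The test was checked on simulated data in which only genes of higher counts were changed and all genes had the same spread. That check does not cover the members of low count. Sequences and coordinates are from RefSeq TAIR10.1, in which all 38 loci were matched, and transcript models may differ from those the authors used.

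Every member is named. Values by library are given for members past both limits, the 3 highest and 3 lowest of each class, the PRPL12 and PRPL19 copies, the highest and lowest per length, and those not tested. Of other lists, genes past both limits or the highest and lowest are named. The members, lists and motifs were chosen with earlier results of these data known. Alternatives used DESeq2 1.42.0 and limma 3.58.1 as well.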

Additional observations from a re-analysis of the deposited data

How the results depend on the processing

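The counts of members were computed under 17 alternatives: other scalings, filters and tests, a replicate block, the gene set of the deposited normalised table (chosen after seeing the data) and the omission of each library. The number past both limits upwards was 9 with DESeq2 size factors, without organelle genes or with the replicate block, 14 with library size alone, 12 with limma-voom and 11 with no filter. On leaving out single libraries it was 8 to 14, the lowest without mCHERRY replicate 1 and the highest without mCHERRY replicate 3. The number higher without a fold limit was 20 to 25, and none was called lower under any of them. The fitted change was above 0 in 34 of 36 tested members without mCHERRY replicate 1 and in 33 of 35 without GmWRI1 replicate 2. It was above 0 in 36 of 37 without GmWRI1 replicate 3, and in all tested members under the other alternatives. PRPL34, PRPL21, PRPS17 and PSRP2 passed both limits in all 17, PRPL4, PRPL15, PRPL24, PRPL35 and PRPS6 in 16, and PSRP3 in 10. The cause was not tested.

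On leaving out single libraries the median log2 fold change was 0.80 to 0.92 over members, 0.76 to 0.97 over the large subunit and 0.64 to 0.90 over the small subunit. It was -0.23 to -0.10 over plastid-encoded ribosomal proteins, 0.58 to 0.70 over translation factors and 0.46 to 0.56 over cytosolic ribosomal proteins. The translation factor median was 0.64 with limma-voom, and with no filter those of the other plastid and the mitochondrial ribosomal proteins were 0.91 and 0.0707, with more genes tested.

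Deviations of samples with the same replicate number correlated at 0.10, -0.01 and 0.04, and those with different numbers at -0.07 to 0.03. No test of pairing was made, and the numbers were not shown to pair the samples. With the replicate block 9 members passed both limits and 24 were higher without the fold limit. Depth limits the low members: counts ran from 3 reads per library, and PRPL11, PRPL12-C and PRPL19-2 were below the count minimum of the edgeR test. They entered 3, 6 and 8 of the 17 alternatives, and PRPL19-2 passed both limits in 1 of them, without GmWRI1 replicate 1.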
